A study of Mus musculus with 15 samples.

Results

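Homologous recombination, the Fanconi anemia pathway and the DNA damage checkpoints were followed through 34 genes named for these roles, from Brca1 and Brca2 to Atr and Chek1, of the 34432 genes listed for both experiments. The rule names the genes by function and symbol and uses no measured value, but the members were chosen with earlier results of these data known. Each symbol matched exactly 1 row in each count table, and all 34 members passed the filter on low values in both experiments. RNA-sequencing was available from 15 libraries of CT26 cells, a mouse colon carcinoma line, in 2 experiments with 3 biological replicates per group. In the first experiment, cells labelled as control knockdown (shControl) were compared with a stable line selected for a tet-inducible hairpin against Prmt1 (shPrmt1) that had been given DOX for 3 days. Whether shControl cells received DOX is not given in the labels, and the sources used here do not say whether the shPrmt1 line was a single clone. In the second experiment, wild-type CT26 cells were given vehicle, 6 µM MS023 or 6 µM GSK3368715, both for 48 hours. MS023 and GSK3368715 inhibit PRMT1, which was left in place in those cells, and they also act on related type I arginine methyltransferases.

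Homologous recombination repairs a broken chromosome, or a replication fork that has collapsed, by copying the intact sister chromatid. The break is first resected to single strands by the complex of MRE11, RAD50 and NBN with CtIP (the product of Rbbp8), BRCA1 and BRCA2 with PALB2 then act on those strands, and helicases and nucleases form and resolve the joint molecules. The Fanconi core complex ubiquitinates the FANCD2 and FANCI pair at an interstrand crosslink and hands the lesion on to nucleases and recombination, while the kinases ATM and ATR signal the damage to CHEK2 and CHEK1. PRMT1 is the main enzyme of asymmetric arginine dimethylation, and MRE11 is among its known substrates.

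Levels of members of the pathway fell after the knockdown of Prmt1 and after either inhibitor, in a limited set of genes spread over several steps of the pathway. In shPrmt1 cells 7 of the 34 members (20.6%) were called lower and none higher, where 7.17% of all genes tested were called lower and 7.50% higher. With MS023, 9 members (26.5%) were called lower, against 14.1% of all genes, and 1 was called higher, against 13.7%. With GSK3368715, 5 members (14.7%) were called lower and none higher, where the shares of all genes were 4.47% and 5.16%. Brca2, Rad51d, Rad50 and Eme1 (11.8% of the members) were lower in all 3 comparisons, and so were 1.97% of the genes tested in both experiments. The calls came from limma on the log2 of the normalized count + 1 with Benjamini-Hochberg adjustment over all genes tested, and the change of genes with few reads is understated on this scale. MS023 and GSK3368715 were measured against the same 3 vehicle libraries, so that calls in both are not independent of each other.

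The calls were made in 12 of the 34 members over the 3 comparisons, and 22 were called in none. The median log2 fold change of the 34 members was -0.10 in shPrmt1 cells, -0.08 with MS023 and 0.021 with GSK3368715, and the medians of all genes tested were -0.00357, 0.00283 and 4.16e-04. Brca1 and the 6 checkpoint members were called in none of the comparisons. The number of calls in the knockdown moved with single libraries, from 7 to 2 without shControl replicate 1, to 4 without shControl replicate 2 or shPrmt1 replicate 3, and to 10 without shPrmt1 replicate 2. For GSK3368715 it moved from 5 to 3 without vehicle replicate 3 and to 2 without GSK3368715 replicate 3, and to 2 as well when MS023 was left out of the fit, while for MS023 it stayed between 8 and 11.

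Prmt1 had 5601, 5717 and 5620 normalized counts with shControl and 669, 761 and 683 with shPrmt1, and its log2 fold change was -0.07 with MS023 and -0.01 with GSK3368715 (adjusted p = 0.351 and 0.914). Reads on genes ran from 17284091 to 29233738 per library in the knockdown experiment and from 40119305 to 93697833 in the inhibitor experiment, and the 2 experiments were normalized separately, so only differences within an experiment were compared. Among epithelial markers Epcam was listed at 0 in every library and Cdh1 reached at most 2.29 normalized counts, while Krt18 and Krt20 were present and Vim had at least 58943 in every library. The leukocyte genes Ptprc and Cd3e and the endothelial gene Cdh5 stayed at or under 6.11 normalized counts. In bulk RNA fewer cells in a given state and less RNA per cell cannot be told apart, which holds for every difference below.

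**Figure D1:**
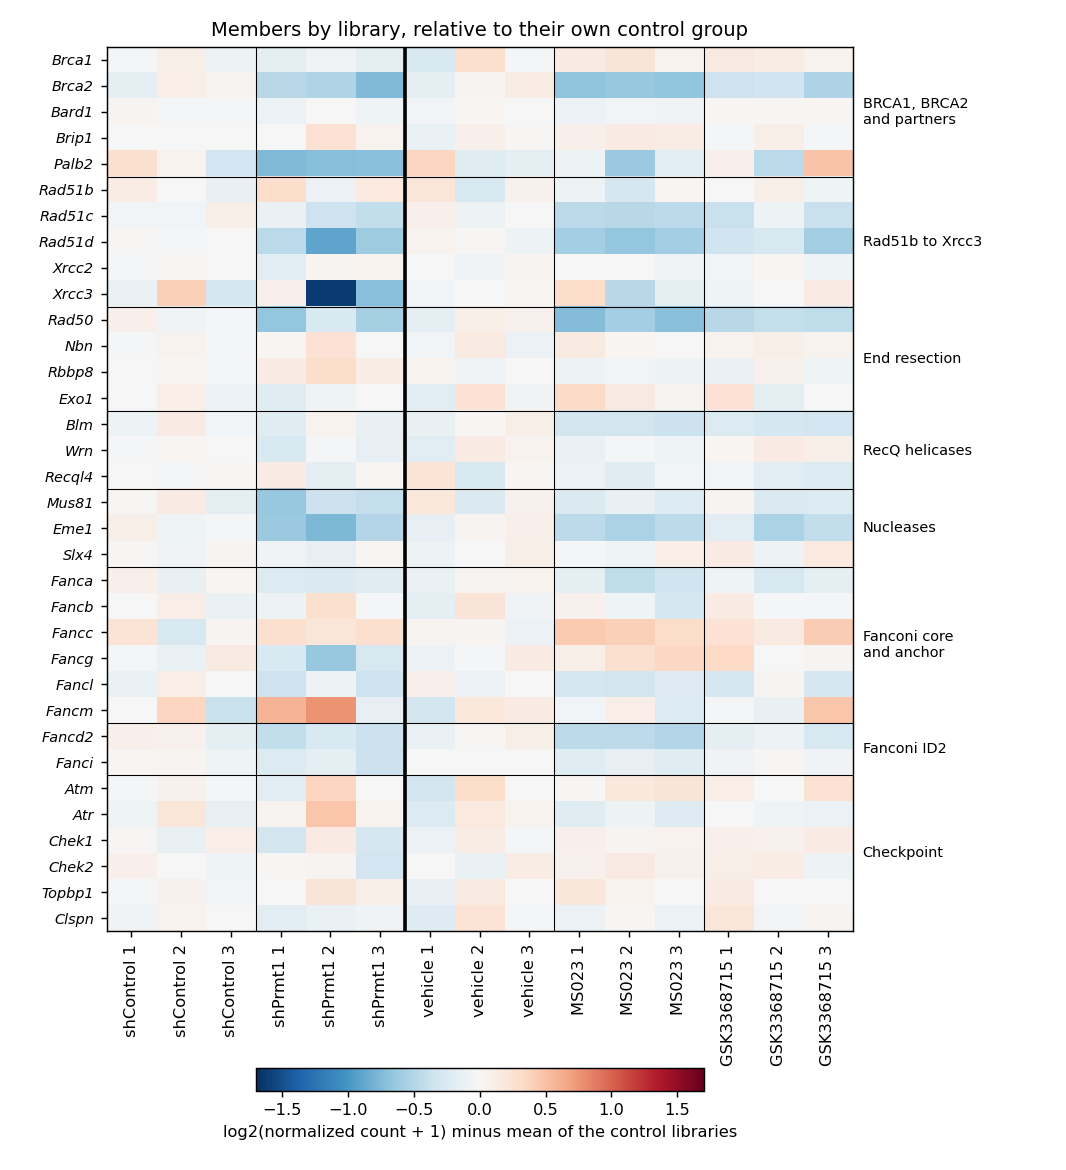
Each row is 1 of the 34 members, grouped by role, and each column 1 library; the color gives log2(normalized count + 1) minus the mean of the 3 control libraries of the same experiment (shControl left of the thick line, vehicle right of it). Brca2, Rad51d, Rad50 and Eme1 are blue in all 9 treated libraries, and so are Rad51c, Fanca and Fancd2. The 6 checkpoint rows at the bottom hold both colors, and Xrcc3 in shPrmt1 replicate 2 is the darkest single cell.

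Of the 5 genes for BRCA1, BRCA2 and their partners, Brca2 fell in every comparison and Palb2 fell in the knockdown. Brca2 (ENSMUSG00000041147, chr5:150522630-150570329, plus strand) encodes a large protein that works on the resected single-stranded DNA. It had 1917, 2302 and 2190 normalized counts with shControl and 1532, 1498 and 1264 with shPrmt1, and fell by 0.58 on the log2 scale (SE 0.099, adjusted p = 0.00743). Every shPrmt1 library was below every shControl library, and the shPrmt1 mean was 67.0% of the control mean. The vehicle libraries held 6096, 7034 and 7459 normalized counts of Brca2, the MS023 libraries 4266, 4378 and 4313 and the GSK3368715 libraries 5365, 5392 and 4737. Both inhibitor groups lay below all vehicle libraries, and Brca2 fell by 0.66 on the log2 scale (SE 0.078, adjusted p = 2.49e-04) with MS023 and fell by 0.41 on the log2 scale (SE 0.078, adjusted p = 0.0104) with GSK3368715. The call for Brca2 was kept in all 3 comparisons under every setting tried and without any single library.

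Palb2 (ENSMUSG00000044702, chr7:122107262-122132985, minus strand), which bridges BRCA1 and BRCA2, had 399, 341 and 261 normalized counts with shControl and 195, 199 and 200 with shPrmt1. It fell by 0.73 on the log2 scale (SE 0.15, adjusted p = 0.0161), the largest fall among the members called in the knockdown, with shPrmt1 libraries close to each other and control libraries that were far apart. The call was lost without shControl replicate 1 (-0.59, adjusted p = 0.0626) or shControl replicate 2 (-0.70, adjusted p = 0.0622). In the inhibitor experiment Palb2 varied within every group, with 937, 629 and 655 normalized counts in vehicle, 687, 469 and 644 in MS023 and 775, 530 and 1016 in GSK3368715 libraries. The groups overlapped, and the log2 fold changes of -0.30 (95% interval -0.82 to 0.22, adjusted p = 0.380) for MS023 and 0.04 (95% interval -0.48 to 0.56, adjusted p = 0.939) for GSK3368715 left wide intervals. The other 3 genes of this group were not called anywhere. Brca1, the ubiquitin ligase subunit that promotes resection and PALB2 loading, had log2 fold changes of -0.13 in shPrmt1 cells, 0.14 with MS023 and 0.11 with GSK3368715. Bard1, its ligase partner, had -0.06, -0.07 and 0.03 in the same order, and Brip1, a helicase that binds BRCA1, had 0.11, 0.12 and 0.02.

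The region before the RefSeq start of Brca2 is shown beside those of Chek2 and Blm. They were chosen since Brca2 was lower in all 3 comparisons, Chek2 in none and Blm with the inhibitors. In GENCODE M21 the span of Blm ends at 80535119 and that of Chek2 starts at 110839979, both inside the windows shown. The 250 bases upstream of the start come from RefSeq (GRCm38.p6, the build called mm10), 5′ to 3′ on the strand of the gene, and capitals mark the letters TTTCCCGC, TTTGGCGC, TTTCGCGC or TTTGCCGC of E2F-like sites and CCAAT, each on either strand.
Brca2, chr5:150522371-150522620, plus strand: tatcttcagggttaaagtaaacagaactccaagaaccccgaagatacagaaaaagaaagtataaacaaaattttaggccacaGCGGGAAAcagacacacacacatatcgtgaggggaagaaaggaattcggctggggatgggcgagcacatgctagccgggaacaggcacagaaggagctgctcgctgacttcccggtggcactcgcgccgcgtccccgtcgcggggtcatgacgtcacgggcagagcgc
Chek2, chr5:110839733-110839982, plus strand: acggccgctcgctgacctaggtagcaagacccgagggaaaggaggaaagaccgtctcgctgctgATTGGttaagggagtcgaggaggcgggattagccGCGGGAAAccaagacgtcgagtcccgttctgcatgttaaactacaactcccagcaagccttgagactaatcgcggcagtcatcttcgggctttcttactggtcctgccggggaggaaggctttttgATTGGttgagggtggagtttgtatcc
Blm, chr7:80534999-80535248, minus strand: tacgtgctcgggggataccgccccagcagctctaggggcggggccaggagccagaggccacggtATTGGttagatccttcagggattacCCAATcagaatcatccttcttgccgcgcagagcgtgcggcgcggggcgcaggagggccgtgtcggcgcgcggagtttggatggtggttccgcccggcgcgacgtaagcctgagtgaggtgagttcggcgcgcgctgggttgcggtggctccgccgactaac
Brca2 and Chek2 share the same 8 letters, GCGGGAAA, on the strand printed. The letters start at base -168 of Brca2 and at base -152 of Chek2, counted back from the RefSeq start. The Blm window holds no E2F-like letters and has CCAAT on each strand, and no marked letters overlap in these windows. Promoters were found in the RefSeq table for 25 of the 34 members, as 27 windows, and E2F-like letters occurred in 5 of them, those of Brca2, Chek2, Bard1, Fancg and Topbp1. That is 18.5% of the members' windows, where 1.86% of the 32851 windows of the same length in the table hold them. Of these 5 members only Brca2 was called in any comparison. CCAAT occurred in 51.9% of the members' windows against 33.9% of all windows, and the letters TTTGAA of the CHR-like motif, counted by the same rule, in 3.70% against 16.0%. A match of letters is not a site that is bound. Rad51d, Rad50 and Fancd2 had no entry in that table.

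Among the 5 genes Rad51b, Rad51c, Rad51d, Xrcc2 and Xrcc3, whose products act together during strand exchange, Rad51d fell in every comparison and Rad51c fell with MS023. Rad51d (ENSMUSG00000018841, chr11:82876434-82890614, minus strand) encodes a subunit of one complex with RAD51B, RAD51C and XRCC2. It had 322, 313 and 316 normalized counts with shControl and 230, 170 and 208 with shPrmt1, and fell by 0.66 on the log2 scale (SE 0.13, adjusted p = 0.0116). The control libraries lay close together and far above all shPrmt1 libraries. In the inhibitor experiment the vehicle libraries had 1135, 1104 and 1018, the MS023 libraries 727, 686 and 722 and the GSK3368715 libraries 858, 896 and 717 normalized counts. No treated library reached the lowest vehicle library, and Rad51d fell by 0.61 on the log2 scale (SE 0.091, adjusted p = 9.41e-04) with MS023 and fell by 0.40 on the log2 scale (SE 0.091, adjusted p = 0.0208) with GSK3368715. The knockdown call was lost without shControl replicate 1 (-0.64, adjusted p = 0.0563), and the GSK3368715 call without vehicle replicate 1 (-0.37, adjusted p = 0.0506) or GSK3368715 replicate 3 (-0.31, adjusted p = 0.0552).

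Rad51c (ENSMUSG00000007646, chr11:87376645-87404954, minus strand), whose product is shared by both complexes of this group, had 1133, 1005 and 1079 normalized counts in vehicle, 780, 770 and 789 in MS023 and 825, 1009 and 821 in GSK3368715 libraries. The MS023 libraries were close together and all below vehicle, and Rad51c fell by 0.46 on the log2 scale (SE 0.089, adjusted p = 0.00394), while 1 of the GSK3368715 libraries lay above the lowest vehicle library. For GSK3368715 its log2 fold change was -0.28 (95% interval -0.48 to -0.08, adjusted p = 0.0726), and without GSK3368715 replicate 2 it was -0.38 (adjusted p = 0.0225). In the knockdown Rad51c had 276, 276 and 305 normalized counts in shControl and 264, 223 and 214 in shPrmt1 libraries, with a log2 fold change of -0.29 (95% interval -0.55 to -0.04, adjusted p = 0.118). Xrcc3, the partner of RAD51C in the second complex, had 71.3, 102 and 63.0 normalized counts in shControl and 82.3, 24.2 and 47.0 in shPrmt1 libraries. Its groups overlapped, shPrmt1 replicate 2 stood far below the rest, and the log2 fold change of -0.75 (95% interval -1.66 to 0.17, adjusted p = 0.241) had the widest interval of all members. Rad51b and Xrcc2 had log2 fold changes between -0.11 and 0.12 in the 3 comparisons with control.

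**Figure D2:**
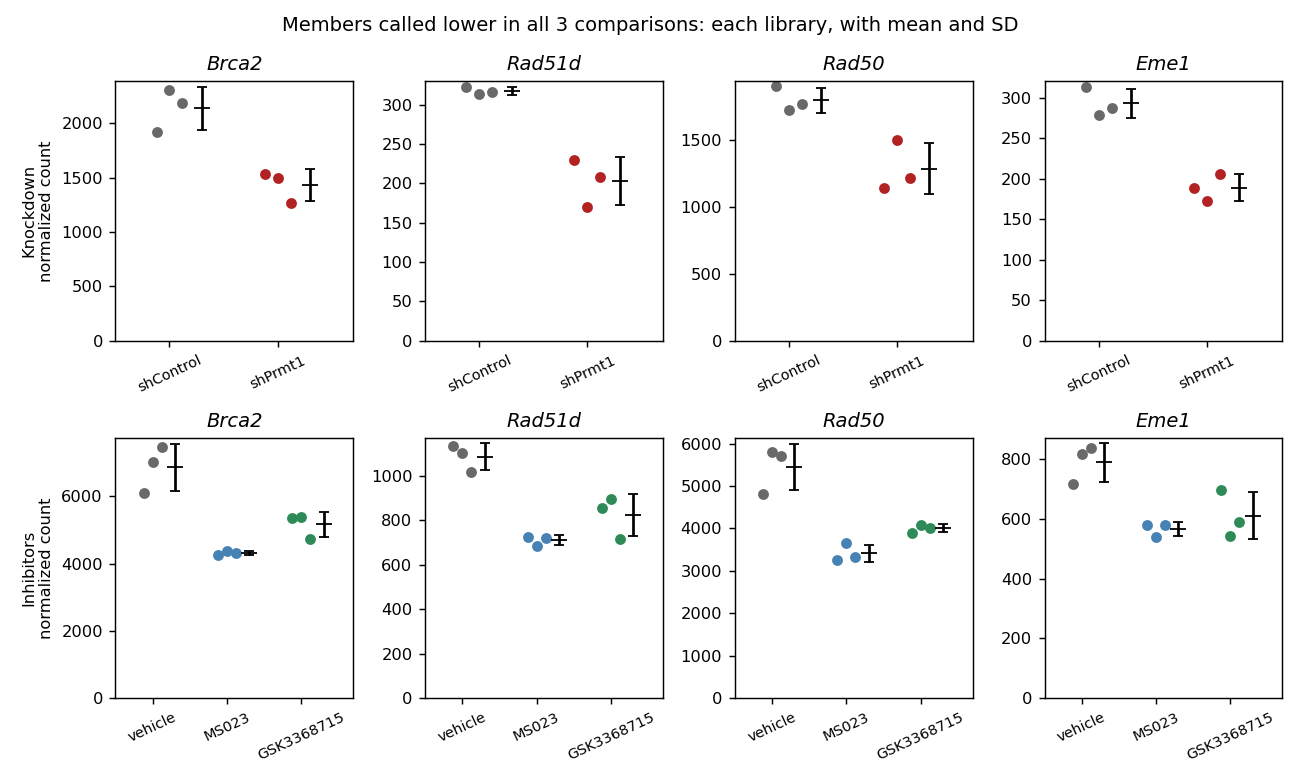
Normalized counts of Brca2, Rad51d, Rad50 and Eme1 in each library (points, 3 per group) with the mean and SD of the group beside them, in the knockdown experiment (upper row) and the inhibitor experiment (lower row), on axes that start at 0. In each panel every treated library lies below every control library. The genes were picked for their calls in these comparisons, and the share of all genes so separated was not counted.

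Of the 4 end resection genes only Rad50 was called, in all 3 comparisons with control. Rad50 (ENSMUSG00000020380, chr11:53649519-53707319, minus strand) encodes the coiled-coil ATPase that holds MRE11 and NBN at a break. Normalized counts were 1903, 1725 and 1772 in the shControl and 1140, 1502 and 1218 in the shPrmt1 libraries. All shPrmt1 libraries were lower, and Rad50 fell by 0.49 on the log2 scale (SE 0.11, adjusted p = 0.0178). In the other experiment Rad50 had 4819, 5814 and 5698 in vehicle, 3263, 3650 and 3318 in MS023 and 3904, 4092 and 4011 in GSK3368715 libraries. The vehicle, GSK3368715 and MS023 libraries followed each other without overlap, and Rad50 fell by 0.67 on the log2 scale (SE 0.076, adjusted p = 2.04e-04) with MS023 and fell by 0.44 on the log2 scale (SE 0.076, adjusted p = 0.00670) with GSK3368715. The inhibitor calls were kept under every setting and without any single library, and the knockdown call was lost without shControl replicate 1 (-0.45, adjusted p = 0.0843), shControl replicate 3 (-0.50, adjusted p = 0.0651) or shPrmt1 replicate 3 (-0.46, adjusted p = 0.0571).

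The other resection members were not called. Nbn, the third subunit of that complex, had log2 fold changes of 0.09 in shPrmt1 cells, 0.06 with MS023 and 0.07 with GSK3368715, and Exo1, the long-range exonuclease, had -0.09, 0.18 and 0.03. Rbbp8 had 0.19, -0.07 and -0.04. The smallest adjusted p among the 9 values was 0.116. Mre11a, the nuclease of the complex and no member, had 5369, 6434 and 5696 normalized counts in vehicle, 4371, 4303 and 4169 in MS023 and 4725, 4800 and 5003 in GSK3368715 libraries. It fell by 0.44 on the log2 scale (SE 0.066, adjusted p = 9.43e-04) with MS023 and fell by 0.26 on the log2 scale (SE 0.066, adjusted p = 0.0321) with GSK3368715, and in the knockdown its log2 fold change of -0.24 was not called (adjusted p = 0.106).

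Of the 3 RecQ helicases, Blm fell with both inhibitors, while Wrn and Recql4 were not called. Blm (ENSMUSG00000030528, chr7:80454733-80535119, minus strand) dissolves double Holliday junctions without crossing over. It had 2855, 3205 and 3348 normalized counts in vehicle, 2515, 2531 and 2429 in MS023 and 2663, 2534 and 2501 in GSK3368715 libraries. All 6 treated libraries were below vehicle, and Blm fell by 0.33 on the log2 scale (SE 0.065, adjusted p = 0.00437) with MS023 and fell by 0.29 on the log2 scale (SE 0.065, adjusted p = 0.0216) with GSK3368715. The GSK3368715 call was lost without vehicle replicate 3 (-0.24, adjusted p = 0.0869), GSK3368715 replicate 2 (-0.28, adjusted p = 0.0572) or GSK3368715 replicate 3 (-0.27, adjusted p = 0.0696). In the knockdown the groups overlapped, with 939, 1094 and 964 normalized counts in shControl and 864, 1041 and 915 in shPrmt1 libraries and a log2 fold change of -0.09 (95% interval -0.31 to 0.13, adjusted p = 0.562).

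Among the 3 genes of structure-selective nucleases, Eme1 fell in every comparison and Mus81, whose product is the catalytic partner of EME1, fell in the knockdown. Eme1 (ENSMUSG00000039055, chr11:94644996-94653964, minus strand) had 313, 279 and 287 normalized counts with shControl and 189, 172 and 206 with shPrmt1. All shPrmt1 libraries were far below the controls, and Eme1 fell by 0.63 on the log2 scale (SE 0.11, adjusted p = 0.00768), a call that was kept under every setting and without any single library. In the inhibitor experiment it had 715, 815 and 836 in vehicle, 580, 539 and 580 in MS023 and 697, 542 and 590 in GSK3368715 libraries. The MS023 libraries lay together well below vehicle, while GSK3368715 replicate 1 came close to the lowest vehicle library. Eme1 fell by 0.47 on the log2 scale (SE 0.10, adjusted p = 0.00688) with MS023 and fell by 0.38 on the log2 scale (SE 0.10, adjusted p = 0.0451) with GSK3368715. The GSK3368715 call was lost without vehicle replicate 2 (-0.35, adjusted p = 0.0872), vehicle replicate 3 (-0.33, adjusted p = 0.146), GSK3368715 replicate 2 (-0.29, adjusted p = 0.124) or GSK3368715 replicate 3 (-0.36, adjusted p = 0.114). Exons of Eme1 share 221 bases with Lrrc59 and 75 with Mrpl27 on the other strand, and the sources used here do not say whether strand was used in the counting, so reads from those bases cannot be told apart. The log2 fold changes of Lrrc59 were -0.14 in shPrmt1 cells, -0.23 with MS023 and -0.19 with GSK3368715, all closer to 0 than those of Eme1. Lrrc59 was itself called lower with MS023 (adjusted p = 0.0288). Its mean normalized count in vehicle was 17747, far above that of Eme1. The part of its reads in the Eme1 values was not tested.

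Mus81 (ENSMUSG00000024906, chr19:5482345-5488402, minus strand) had 180, 194 and 158 normalized counts with shControl and 113, 137 and 133 with shPrmt1. The groups did not overlap, and Mus81 fell by 0.47 on the log2 scale (SE 0.13, adjusted p = 0.0493), just inside the threshold. The call was lost without shControl replicate 1 (-0.46, adjusted p = 0.160), shControl replicate 2 (-0.40, adjusted p = 0.157), shControl replicate 3 (-0.55, adjusted p = 0.0791), shPrmt1 replicate 1 (-0.39, adjusted p = 0.115) or shPrmt1 replicate 3 (-0.50, adjusted p = 0.0877). With the inhibitors Mus81 was not called, with 851, 631 and 792 in vehicle, 632, 687 and 639 in MS023 and 774, 634 and 638 in GSK3368715 libraries and log2 fold changes of -0.21 (95% interval -0.47 to 0.06, adjusted p = 0.226) and -0.15 (95% interval -0.41 to 0.12, adjusted p = 0.478). The vehicle libraries alone spanned the values of all treated libraries, and without vehicle replicate 2 the MS023 value was -0.33 (adjusted p = 0.0399). Its exons share 173 bases with Efemp2 on the other strand, which had a log2 fold change of 0.18 in shPrmt1 cells. Slx4, the scaffold that gathers these nucleases, had log2 fold changes of -0.05, 0.01 and 0.08 in the 3 comparisons.

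**Figure D3:**
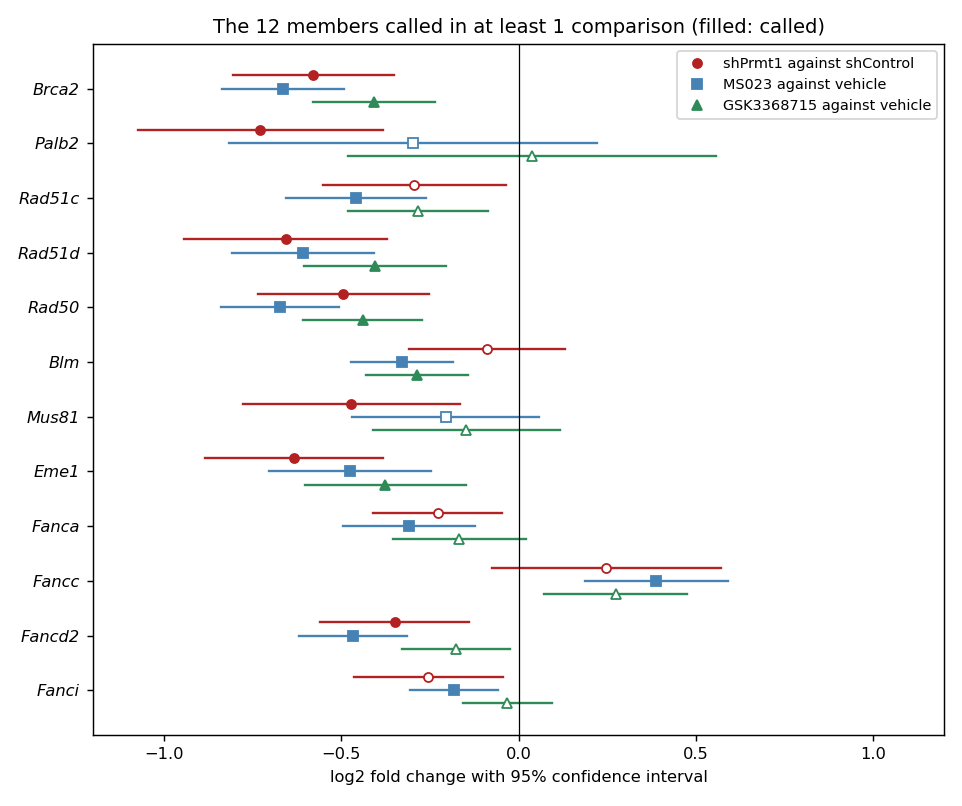
Log2 fold change with its 95% confidence interval from limma for the 12 members called in at least 1 comparison, for shPrmt1 (circles), MS023 (squares) and GSK3368715 (triangles) against their own controls, with filled symbols for calls. The 4 members called in all comparisons have only intervals below 0, Fancc is the only member with all 3 symbols right of 0 and a call, and Palb2 has the widest intervals.

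Of the 6 Fanconi core and anchor genes 1 was called higher and 1 lower with MS023, and none in the other comparisons with control. Fancc (ENSMUSG00000021461, chr13:63285043-63497278, minus strand), a core complex subunit, was the only member called higher in any comparison. It had 505, 502 and 456 normalized counts in vehicle and 664, 646 and 604 in MS023 libraries, a rise by 0.39 on the log2 scale (SE 0.091, adjusted p = 0.0101). The GSK3368715 libraries, with 576, 541 and 654, also lay above all vehicle libraries, but the log2 fold change of 0.27 (95% interval 0.07 to 0.48, adjusted p = 0.0862) did not pass the test. In the knockdown it had 209, 146 and 182 normalized counts in shControl and 214, 205 and 213 in shPrmt1 libraries, with a log2 fold change of 0.25 (95% interval -0.08 to 0.57, adjusted p = 0.270). Fancc shares 1373 exon bases with the antisense gene Gm16133 and 185 with 2010111I01Rik. Whether strand was used is not stated, so reads from those bases cannot be told apart here.

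Fanca (ENSMUSG00000032815, chr8:123268300-123318576, minus strand), another core subunit, had 2625, 2932 and 2940 normalized counts in vehicle, 2544, 2088 and 2247 in MS023 and 2699, 2346 and 2528 in GSK3368715 libraries. The MS023 libraries were all below vehicle, and Fanca fell by 0.31 on the log2 scale (SE 0.084, adjusted p = 0.0205), a call that was lost without vehicle replicate 2 (-0.28, adjusted p = 0.0513), vehicle replicate 3 (-0.28, adjusted p = 0.0723), MS023 replicate 2 (-0.24, adjusted p = 0.0857) or MS023 replicate 3 (-0.30, adjusted p = 0.0659). The log2 fold change was -0.17 (95% interval -0.35 to 0.02, adjusted p = 0.244) with GSK3368715. The knockdown libraries had 889, 767 and 854 with shControl and 711, 704 and 724 with shPrmt1, without overlap, at -0.23 (95% interval -0.41 to -0.05, adjusted p = 0.0922). Fanca shares 920 exon bases with Zfp276 on the other strand. Of the remaining 4 genes, Fancl, the ubiquitin ligase of the core, had log2 fold changes of -0.26 in shPrmt1 cells, -0.27 with MS023 and -0.18 with GSK3368715, just outside the threshold for MS023 (adjusted p = 0.0565). It shares 462 of its 3372 exon bases with Vrk2 on the other strand, which itself fell by 0.31 on the log2 scale with MS023 (adjusted p = 0.0321), and had -0.17 in shPrmt1 cells and -0.27 with GSK3368715. Fancg, a core subunit, had -0.39, 0.24 and 0.13, Fancm, the DNA translocase that anchors the core, had 0.41, -0.05 and 0.11, and Fancb, a core subunit, had 0.05, -0.09 and 0.03. Bases shared with a gene on the other strand also lie in Palb2 (414 bases), Recql4 (422), Rbbp8 (402), Fancd2 (257), Fancm and Atr. Brca2 and Xrcc3 share 41 and 12 bases. Whether strand was used in the counting is not stated, so reads from those bases cannot be told apart. The gene beside Palb2 had a mean of 0 normalized counts in each experiment. In the knockdown and inhibitor experiments that beside Fancd2 had 0.317 and 1.02. That beside Recql4 had 45.8 and 166, and that beside Xrcc3 2417 and 7536. Those beside Brca2, Rbbp8 and Atr had no values, and those beside Fancm none or 0.

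Both genes of the ID2 complex fell with MS023, and Fancd2 fell in the knockdown as well. Fancd2 (ENSMUSG00000034023, chr6:113531682-113597017, plus strand) had 913, 899 and 770 normalized counts with shControl and 640, 716 and 666 with shPrmt1. It fell by 0.35 on the log2 scale (SE 0.092, adjusted p = 0.0383) with no overlap, a call that was lost without shControl replicate 1 (-0.30, adjusted p = 0.157), shControl replicate 2 (-0.32, adjusted p = 0.125), shPrmt1 replicate 1 (-0.31, adjusted p = 0.0948) or shPrmt1 replicate 3 (-0.34, adjusted p = 0.0941). In the inhibitor experiment it had 2983, 3279 and 3450 in vehicle, 2364, 2373 and 2283 in MS023 and 2876, 3041 and 2674 in GSK3368715 libraries. The MS023 libraries stood apart from the other 6 and Fancd2 fell by 0.47 on the log2 scale (SE 0.069, adjusted p = 8.68e-04), a call kept under every setting and without any single library. With GSK3368715 the libraries reached into the vehicle range, at -0.18 (95% interval -0.33 to -0.02, adjusted p = 0.132).

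Fanci (ENSMUSG00000039187, chr7:79391929-79450264, plus strand) had 1550, 1551 and 1556 normalized counts in vehicle, 1345, 1413 and 1348 in MS023 and 1491, 1579 and 1489 in GSK3368715 libraries. The vehicle libraries were nearly equal, all MS023 libraries were lower, and Fanci fell by 0.18 on the log2 scale (SE 0.056, adjusted p = 0.0347), the smallest change among the calls. This call was lost without any one of the 6 libraries compared, at log2 fold changes from -0.21 (without MS023 replicate 2) to -0.17 (without MS023 replicate 1). In shPrmt1 cells Fanci had 361, 381 and 331 normalized counts against 435, 441 and 404 in shControl, at -0.25 (95% interval -0.46 to -0.04, adjusted p = 0.10), and without shPrmt1 replicate 2 at -0.30 (adjusted p = 0.0399). With GSK3368715 its log2 fold change was -0.03 (95% interval -0.16 to 0.09, adjusted p = 0.777). Fanci shares 921 exon bases with Polg on the other strand. The log2 fold changes of Polg were -0.17 in shPrmt1 cells, 0.04 with MS023 and -0.11 with GSK3368715, none of them called. Its mean normalized count in shControl was 1275, where that of Fanci was 426. The part of its reads in the Fanci values was not tested.

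The 6 checkpoint genes were not called in any comparison with control. Topbp1, which activates ATR and had the highest mean count of the members, had 4923, 5283 and 4857 normalized counts in shControl and 4988, 5850 and 5401 in shPrmt1 libraries. In the inhibitor experiment it had 11289, 13832 and 12440 in vehicle, 14268, 12987 and 12556 in MS023 and 13769, 12396 and 12488 in GSK3368715 libraries. Treated and control libraries overlapped in all 3 comparisons, at log2 fold changes of 0.11, 0.09 and 0.04. Atm, the kinase that responds to double-strand breaks, had 1715, 1851 and 1719 normalized counts in shControl and 1558, 2263 and 1771 in shPrmt1 libraries, and 4072, 6301 and 5069 in vehicle, 5118, 5739 and 5916 in MS023 and 5503, 5112 and 6048 in GSK3368715 libraries. Atr, the kinase of stalled forks, had 1384, 1679 and 1322 in shControl and 1506, 2012 and 1511 in shPrmt1 libraries, and 4013, 5268 and 4920 in vehicle, 4084, 4411 and 4049 in MS023 and 4688, 4458 and 4405 in GSK3368715 libraries. In both kinases vehicle replicate 1 was the lowest vehicle library, and without it the MS023 value of Atr moved from -0.17 to -0.28 (adjusted p = 0.00832). That library was also the lowest vehicle library in many other members, Brca2, Rad50 and Topbp1 among them. In others, such as Palb2, Rad51c and Rad51d, it was the highest. Chek1, the effector kinase of ATR, had log2 fold changes of -0.15, 0.06 and 0.10, and Chek2, that of ATM, had -0.08, 0.10 and 0.04. Clspn, the adaptor between ATR and CHEK1, had -0.11, -0.06 and 0.07. Over the 6 genes the smallest adjusted p was 0.280 in the knockdown, 0.178 with MS023 and 0.377 with GSK3368715.

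The 2 inhibitors were compared directly at the same dose and time, and no member was called different between them, where 0.515% of all genes were. At an unadjusted p under 0.05, limma gave 5 members (14.7%), where 13.2% of all genes passed that threshold. The 5 were Brca2, Rad51d, Rad50, Fancd2 and Fanci, and each was higher with GSK3368715 than with MS023. The difference in log2 level was 0.29 for Fancd2 (95% interval 0.14 to 0.44, adjusted p = 0.107), 0.26 for Brca2 (0.08 to 0.43) and 0.23 for Rad50 (0.07 to 0.40). It was 0.20 for Rad51d (0.00 to 0.40) and 0.15 for Fanci (0.03 to 0.28). All 3 GSK3368715 libraries were above all 3 MS023 libraries for Brca2, Rad50, Fancd2 and Fanci, while Rad51d overlapped. The same separation was seen in Rad51c, Bard1 and Wrn, which did not pass the unadjusted threshold. It rests on the same values as the p-values, and the share of all genes so separated was not counted. For Blm the difference was 0.04 (-0.10 to 0.19) and for Eme1 0.10 (-0.13 to 0.33), so that these intervals reach both sides of 0 without showing that the compounds act alike. By edgeR on the recovered reads no member was called either, and by DESeq2 only Fancd2 was (0.29, adjusted p = 0.00989).

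The effect of the knockdown was not called different from that of either inhibitor in any member, where 7.63% of all genes were for MS023 and 4.11% for GSK3368715. At an unadjusted p under 0.05, limma gave 3 members (8.82%) against MS023, namely Fancg, Rbbp8 and Atr, and 4 (11.8%) against GSK3368715, namely Fancg, Rbbp8, Fanci and Palb2. Both shares were below those of all genes at that threshold, 23.1% and 18.7%. The knockdown effect on Fancg was lower than the MS023 effect by a log2 difference of -0.64 (95% interval -1.04 to -0.23, adjusted p = 0.0552). Fancg had 100, 95 and 114 normalized counts in shControl and 85.7, 65.5 and 84.7 in shPrmt1 libraries, and 375, 392 and 445 in vehicle and 432, 489 and 515 in MS023 libraries. It was lower in all shPrmt1 libraries than in shControl, and in the inhibitor experiment the groups overlapped. Against MS023 edgeR called no member and DESeq2 called Fancg (-0.62, adjusted p = 0.0459) and Rbbp8 (0.26, adjusted p = 0.0495), and neither tool called any against GSK3368715. Single libraries added calls against MS023, namely Fancg without shPrmt1 replicate 1 (-0.70), Chek1 without shPrmt1 replicate 2 (-0.36) and Brca1 without vehicle replicate 2 (-0.41), and Chek1 against GSK3368715 without shPrmt1 replicate 2 (-0.40). For the members called in all 3 comparisons the intervals of the difference between knockdown and MS023 were -0.19 to 0.36 for Brca2, -0.37 to 0.28 for Rad51d, -0.11 to 0.46 for Rad50 and -0.48 to 0.16 for Eme1.

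The knockdown and MS023 were measured in separate experiments with their own controls. Of the 7 members lower in shPrmt1 cells 5 (71.4%) were lower with MS023, and these were 55.6% of the 9 that MS023 lowered. Over all genes tested in both experiments 52.2% of the 822 lower in shPrmt1 cells were lower with MS023, which was 24.0% of the 1785 that MS023 lowered. Across the 34 members the log2 fold changes of the 2 experiments correlated at 0.616 (Pearson's r) and 0.557 (Spearman's rho), and across the 11471 genes tested in both Pearson's r was 0.529. These are descriptions across genes, which are not independent replicates. The members farthest from equal values were Xrcc3, Fancg and Fancm, none of which was called in either comparison, as the plot of both fold changes shows.

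**Figure D4:**
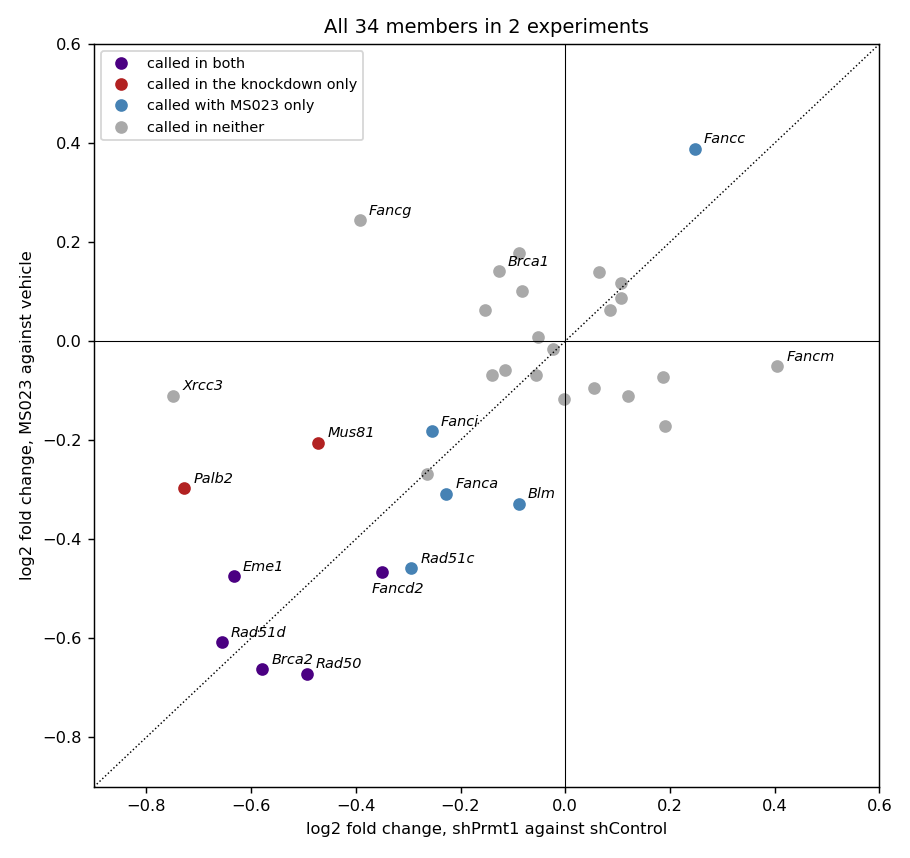
Log2 fold change in the knockdown (x axis) and with MS023 (y axis) of each of the 34 members, colored by the comparisons in which it was called; the dotted line marks equal values. The 5 members called in both, Brca2, Rad51d, Rad50, Eme1 and Fancd2, lie at the lower left near the line, and Fancc lies at the upper right.

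Other genes of the same pathways were followed through a list of 65, of which 64 were tested. In shPrmt1 cells 2 of them (3.12%) were called higher and 8 (12.5%) lower, where 7.50% and 7.17% of all genes were. With MS023 5 (7.81%) were higher and 13 (20.3%) lower, against 13.7% and 14.1%, and with GSK3368715 2 (3.12%) were higher and 5 (7.81%) lower, against 5.16% and 4.47%. The medians of their log2 fold changes were -0.09, -0.08 and -0.05. Mnd1, which with HOP2 assists strand exchange in meiosis, had 245, 219 and 226 normalized counts in shControl and 98.3, 84.8 and 75.5 in shPrmt1 libraries. In the inhibitor experiment it had 798, 775 and 730 in vehicle, 66.2, 78.8 and 75.6 in MS023 and 197, 197 and 219 in GSK3368715 libraries. It fell by 1.41 on the log2 scale (SE 0.13, adjusted p = 4.81e-04) in shPrmt1 cells, fell by 3.37 on the log2 scale (SE 0.11, adjusted p = 1.07e-07) with MS023 and fell by 1.91 on the log2 scale (SE 0.11, adjusted p = 4.19e-05) with GSK3368715, and it was higher with GSK3368715 than with MS023 by 1.46 on the log2 scale (SE 0.11, adjusted p = 6.45e-04). The pseudogene Mnd1-ps matches 94.2% of its transcript at an identity of 97.1%, so that reads may have been split between them.

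Ercc1, the partner of the nuclease XPF in crosslink repair, fell by 0.68 on the log2 scale in shPrmt1 cells, fell by 0.87 with MS023 and fell by 0.71 with GSK3368715 (adjusted p = 0.00521, 2.06e-05 and 2.40e-04). It shares 106 exon bases with Cd3eap on the other strand. The Fanconi associated proteins completed the largest falls, with Faap20 at -0.63 in shPrmt1 cells (adjusted p = 0.0237) and Faap24 at -0.70 with MS023 and -0.44 with GSK3368715 (adjusted p = 8.58e-05 and 0.00409). Faap24 was also called lower in shPrmt1 cells (-0.46, adjusted p = 0.0101) and Faap20 with MS023 (-0.62, adjusted p = 0.00224). With GSK3368715 Faap20 was not called (-0.34, adjusted p = 0.0730). H2ax, the histone variant that is phosphorylated around a break, was the largest rise of the list in each comparison. It had 651, 577 and 634 normalized counts in shControl and 1404, 1244 and 1376 in shPrmt1 libraries, and 2927, 2278 and 2477 in vehicle, 3985, 4097 and 4341 in MS023 and 3789, 3788 and 4116 in GSK3368715 libraries. All treated libraries were above their controls, with log2 fold changes of 1.11, 0.70 and 0.61 (adjusted p = 1.56e-04, 3.07e-04 and 0.00266). The other rises named by the rule were Hus1, of the clamp that ATR signalling needs, in shPrmt1 cells (0.49), Eme2 and the nuclease gene Fan1 with MS023 (0.59 and 0.28), and Timeless, of the fork protection complex, with GSK3368715 (0.20). Eme2 shares exons with Mapk8ip3 on its own strand and with Spsb3 on the other.

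End joining, the other route of break repair, was followed through 12 genes. In shPrmt1 cells 1 (8.33%) was called higher and 2 (16.7%) lower, with MS023 2 (16.7%) higher and 1 (8.33%) lower, and with GSK3368715 none higher and 1 (8.33%) lower, so that each share differed from that of all genes by little more than 1 gene or less. Xrcc5, which encodes KU80, rose by 0.44 on the log2 scale in shPrmt1 cells and by 0.24 with MS023 (adjusted p = 0.0105 and 0.0189). Xrcc6, which encodes its partner KU70, fell by 0.32 with MS023 and fell by 0.26 with GSK3368715 (adjusted p = 0.00257 and 0.0208). The others called were the polymerase gene Polm and Parp1 in shPrmt1 cells (-0.55 and -0.25) and Dclre1c, which encodes Artemis, with MS023 (0.33).

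Some repair genes are expressed mostly in S and G2 phase, so 18 cell cycle genes were set beside the members. Of these only E2f1 was called in shPrmt1 cells (-0.73, adjusted p = 0.00939). With MS023, E2f1 and Aurkb were lower (-0.32 and -0.27) and Mcm6 and Mcm3 higher (0.26 and 0.20), and with GSK3368715 only Aurkb was called, lower (-0.22). These are 5.56% of the 18 genes lower in shPrmt1 cells, 11.1% lower and 11.1% higher with MS023 and 5.56% lower with GSK3368715, with the shares of all genes as given above. The median log2 fold change of the 18 genes was -0.05, -0.02 and 0.01 in the 3 comparisons. The part of cell cycle state in the members' values was not tested.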

How the data were processed

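RNA-sequencing of 15 CT26 libraries was analysed from 2 gene count tables. The authors quantified paired-end reads with Salmon 1.4.0 on mm10 with default parameters, and the signal that they deposited per gene and library is a count divided by a DESeq2 size factor (DESeq2 version not given in the sources used here), referred to as normalized counts. In each library 100% of the values were whole multiples of 1 constant (tolerance 0.001 reads), which gave back whole reads. Their 3 comparison tables of log2 fold changes and p-values were not used. Counts carry no molecular identifiers.

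The log2 of the normalized count + 1 was tested for genes that reached 10 normalized counts in 3 or more libraries of the fit, by limma 3.58.1 with a trend (R 4.3.3), two-sided, with Benjamini-Hochberg adjustment over all genes tested and a threshold of 0.05. The 6 knockdown libraries formed one fit, the 9 inhibitor libraries another, and all 15 a separate one for differences between effects. Calls by edgeR 4.0.16 and DESeq2 1.42.0 on recovered reads, other pseudocounts, filters and scalings, a replicate block and fits without single libraries were alternatives. The p-values measure the spread between samples labelled as biological replicates. Members and gene lists were chosen with earlier results of these data known. Named are the members called in a comparison with control in every library, the others by counts and ranges with the 3 of highest count in full, and from the other lists up to 3 largest rises and falls per comparison. Xrcc3, Fancg, Rbbp8, Mre11a and the genes that share exons with members were added after their values were seen. Positions are from GENCODE M21 (GRCm38). No member had a near-identical transcript (identity of 95% over 30% of its length) elsewhere. The code was tested on simulated data.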

Additional observations from a re-analysis of the deposited data

How the results depend on the processing

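None of the 22 called values of single members changed sign under any alternative, and 12 of them kept their call under all. The number of members called in shPrmt1 cells (7) lay between 6 and 8 under the 10 alternatives that kept every library, and between 2 and 10 when each library was left out in turn. With MS023 (10 members, either direction) it lay between 9 and 11, and between 8 and 11 without single libraries. With GSK3368715 (5) it was 3 with the replicate block and 2 with only the groups compared in the fit, otherwise 4 to 6, and 2 to 5 without single libraries. Between GSK3368715 and MS023 (0) DESeq2 called 1 member. Between the knockdown and the MS023 effect (0) 1 was called with the same upper quartile and 2 by DESeq2, and 0 to 1 without single libraries, as for GSK3368715. Mus81 in the knockdown (no filter, same total), Fancd2 in the knockdown (no trend), Fanci with MS023 (no filter, same total, block) and Rad51d, Blm and Eme1 with GSK3368715 (only the groups compared, and for Blm and Eme1 the block) lost their calls beside those lost without single libraries, and Eme1 with GSK3368715 also did so with no filter, the same total, no trend or edgeR. The cause was not tested.

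Same-numbered libraries share a number, and the labels name no pairs. In the knockdown their deviations from the group means correlated at 0.061, 0.12 and 0.081. Each of these was the best match for its number. In the inhibitor experiment the correlations ran from -0.10 to 0.11, and several libraries matched another number better. Values this low cannot decide whether the knockdown libraries were paired. The block is therefore an alternative and not a known pairing. It gave 8 members in the knockdown, 9 with MS023 and 3 with GSK3368715. In the knockdown 7 were lower and 1, Fancm, was higher (0.41, adjusted p = 0.0158), the only member called higher there under any alternative. Uncalled values near 0 changed sign without single libraries and ranged from -0.084 to 0.19 for Atm in the knockdown, -0.018 to 0.30 with MS023 and -0.028 to 0.29 with GSK3368715. With GSK3368715 they ranged from -0.18 to 0.28 for Palb2, -0.17 to 0.023 for Atr and -0.028 to 0.12 for Topbp1, and between the inhibitors from -4.74e-04 to 0.18 for Eme1. Rescaling to the same total moved the median of all genes by at most 0.04 and gave 1082 higher and 666 lower genes in the knockdown, against 861 and 823. For MS023 it gave 2200 and 1509, against 1784 and 1841, and for GSK3368715 747 and 496, against 672 and 582. The knockdown libraries hold fewer reads on genes than the inhibitor libraries, and the fewest reads among members fell on Xrcc3 and Rad51b.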

Other observations

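Levels between members can be compared only per length, here as normalized counts per kilobase of the longest coding transcript in GENCODE M21. In the shControl libraries Topbp1 ranked first at 961 ± 43.9 (SD, n = 3), followed by Rbbp8 at 376 ± 6.92 and Rad50 at 349 ± 17.9. The lowest were Rad51b at 23.3 ± 2.06, Xrcc3 at 32.6 ± 8.53 and Fancg at 37.2 ± 3.51. In the vehicle libraries, normalized separately, Topbp1, Rbbp8 and Rad50 again came first, at 2397 ± 244, 1265 ± 56.7 and 1056 ± 106 per kilobase, and Xrcc3 and Rad51b came last, at 80.0 ± 2.23 and 98.7 ± 16.4. The next ranks in vehicle, Chek2 at 667 ± 56.1, Clspn at 659 ± 106 and Blm at 657 ± 53.2, did not differ beyond their spread. Brca2, which is the longest transcript of the set, ranked ninth and eighth, at 199 ± 18.5 and 640 ± 65.0, while its count was among the highest.

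Of the 4 members that were lower in all 3 comparisons, 3 (Rad51d, Rad50 and Eme1) lie on chromosome 11. Among the 11 members called lower in any comparison, which include these, 4 lie there. Of the 22 members called in no comparison, 3 do. The share of all genes on that chromosome was not counted. The genomic span of the members lower in all 3 comparisons ran from 8969 to 57801 bases, with a median of 30941. That of the 22 members called in none ran from 6996 to 517409, with a median of 41092. No test was made of these values.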
